A study of Mus musculus with 17 samples.

Results

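The untreated baseline of the study is formed by the mock libraries of its second sequencing batch, collected at 5.5 and at 7 weeks. They were chosen by their labels (batch, treatment and time point), which gives 6 mock libraries as deposited of 17 libraries in the whole series. In 3 of these 6 most values repeat another library of the same group, so the comparison rests on 3 independent libraries: 5.5-week mock replicates 1 and 3, and 7-week mock replicate 3. The mice of every group were males of genotype GFAP-Cre+/- Rpl22HA/wt that entered the study at 8 to 9 weeks of age. Mock mice ate regular chow throughout, and were the age-matched controls of mice given 0.2% (w/w) cuprizone for 5 weeks and regular chow afterwards. The 2 time points of the mock group therefore differ only in the time to collection, as far as the labels say. The 3 libraries of 5.5-week cuprizone mice, replicates 1, 2 and 3, entered the fit to estimate the spread between animals. The labels do not name the promoter fragment or transgenic line behind GFAP-Cre, nor whether tissue of several mice was pooled, and no library of unprecipitated RNA was analysed here.

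In RiboTag mice, Cre recombinase switches on a haemagglutinin-tagged form of the ribosomal protein Rpl22, so that ribosomes of the cells that expressed Cre can be pulled down with the RNA they carry. GFAP is an intermediate filament protein of astrocytes, the glial cells that take up glutamate and potassium and supply neurons with metabolites, and GFAP-driven Cre is known in some lines to act also in neural stem cells and their progeny. The corpus callosum is the white matter tract that joins the hemispheres. It lies directly above the hippocampus and beside the ventricles, so a dissection of it can hold pieces of grey matter, ependyma or choroid plexus. Immediate early genes are the genes that cells switch on within minutes of a stimulus without new protein synthesis, among them the transcription factors of the Fos, Jun, Egr and Nr4a families, the synaptic gene Arc and the phosphatases Dusp1 and Dusp6. In the brain they are used as a record of recent neuronal firing, and astrocytes can express several of them.

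The 3 independent mock libraries held 29021516, 26904354 and 30400048 counts over genes (5.5-week mock 1, 5.5-week mock 3 and 7-week mock 3), and between 23539 and 23980 genes had a count. Among genes with 500 or more counts, 96.2% of the values of 5.5-week mock 2 equalled mock 1 plus an integer from 1 to 10. The same held for 74.4% of the values of 7-week mock 1 and 85.8% of those of 7-week mock 2, each set against 7-week mock 3, while the 3 independent pairs had between 2.76% and 3.58% of such genes within 10 counts of each other. Where they did not repeat it, 7-week mock 1 and mock 2 lay above mock 3, by more than 10 counts in 3522 and 2567 genes, and neither lay below it in any of the 55414 genes. In 5.5-week mock 2 no gene lay more than 10 counts above mock 1, and 5087 genes lay below it. Which of the repeating columns holds the original measurement was not tested.

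The profile of the untreated precipitate was led by genes of astrocytes and by genes of all brain cells. Levels were compared between genes in TPM, which gives each gene's share of all transcripts after its count is divided by its summed exon length. Calm2, which encodes the calcium sensor calmodulin, had the highest mean level at 15311 TPM. Its value was 13773 TPM in 5.5-week mock 1, 15693 TPM in 5.5-week mock 3 and 16467 TPM in 7-week mock 3. Apoe, the main lipid carrier secreted by astrocytes, followed at 13795, 10590 and 11852 TPM in the same order. Cst3, a secreted protease inhibitor, was at 8610, 9365 and 10606 TPM. The order of Calm2 and Apoe is not separated by the spread, since Apoe was above Calm2 in 5.5-week mock 1. Cpe, a neuropeptide-processing enzyme, Actb, cytoplasmic actin, and Aldoc, a glycolytic aldolase of astrocytes, came next with means of 6882, 6339 and 5602 TPM. The 20 genes of highest level, taken by their mean, together made up 10.4%, 10.7% and 11.0% of each library. The myelin gene Mbp was among them with a mean of 2904 TPM, and so was the neuronal synaptic gene Snap25 with 2803 TPM.

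**Figure D1:**
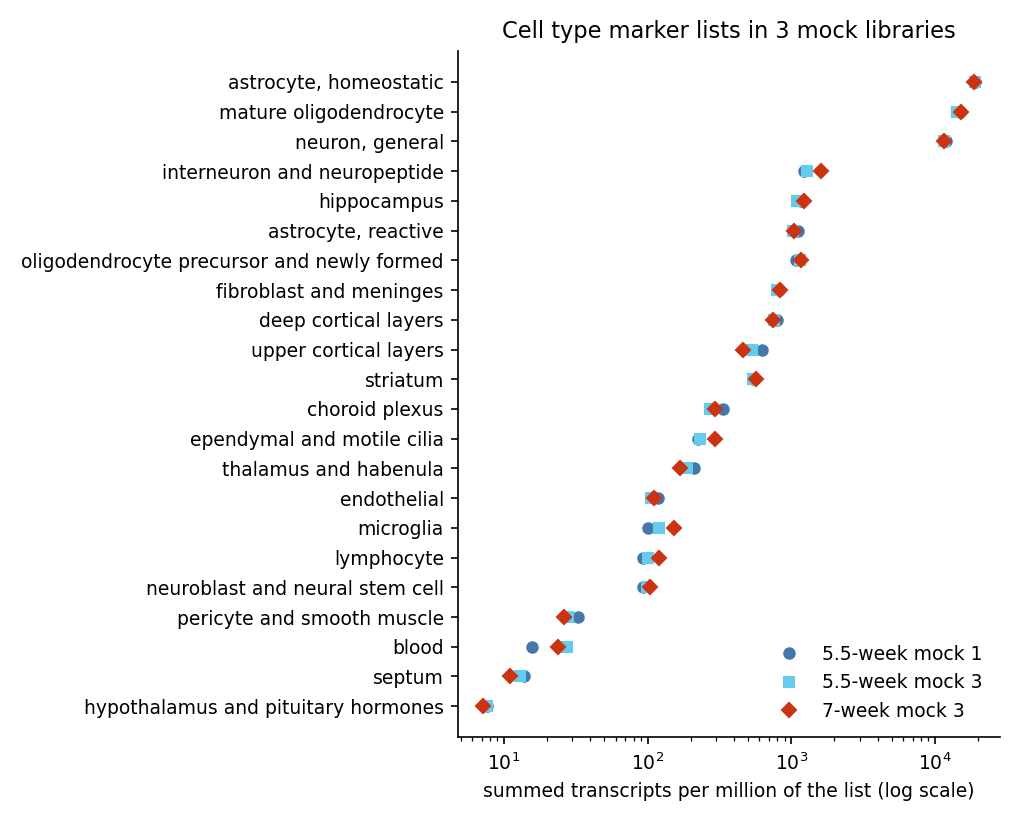
Summed TPM of each list of cell type markers (horizontal axis, log scale) in the 3 independent mock libraries (symbols), with the lists ordered by 5.5-week mock 1. Astrocyte, oligodendrocyte and general neuronal lists lead in every library, and the microglial and ependymal lists are highest in 7-week mock 3.

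The labelled cell type was checked against its markers. All 26 markers of homeostatic astrocytes had a mean of at least 10 TPM, and their sum was 18970, 19080 and 18810 TPM in 5.5-week mock 1, 5.5-week mock 3 and 7-week mock 3. Glul, the glutamine synthetase, had a mean of 2114 TPM and the glutamate transporter Slc1a2 a mean of 482 TPM. Gfap, whose promoter names the Cre line, was at 1018, 940 and 954 TPM. Transcripts of other cell types were also abundant. The 23 markers of mature oligodendrocytes summed to 15000, 14330 and 15210 TPM, and the 16 general neuronal markers to 11900, 11540 and 11630 TPM, as the plot of summed marker lists shows. Microglial markers were low, with a sum of 101 TPM in 5.5-week mock 1, 120 TPM in 5.5-week mock 3 and 153 TPM in 7-week mock 3. Markers of reactive astrocytes other than Gfap were low as well: the 18 genes of that list, Gfap included, summed to 1117, 1028 and 1050 TPM, and Lcn2, Timp1 and Tgm1 had a mean below 1 TPM. In such bulk precipitates fewer cells of a type and less RNA per cell cannot be told apart, and without unprecipitated RNA the share of each cell type that was pulled down cannot be separated from background. All 4 Y-linked genes looked at (Ddx3y, Eif2s3y, Kdm5d and Uty) were detected in every library, as the labelled male sex requires.

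Against the 5.5-week mock libraries, 7 genes were higher in the 7-week mock library and 0 were lower. The 7 genes were Nr4a1, Fos, Arc, Dusp1, Rsrp1, Junb and Egr2, and 6 of them are immediate early genes. The fit covered 17092 genes, and a gene counts as changed where edgeR's quasi-likelihood test gave a Benjamini-Hochberg adjusted p under 0.05, so that 0.041% of all genes rose and 0% fell. At an unadjusted p under 0.05 there were 469 higher (2.74%) and 721 lower genes (4.22%), DESeq2 called 22 higher and 37 lower genes, and limma-voom called 7 and 0. The 7-week group holds 1 independent library, whose own spread could not be measured. A difference of that library therefore cannot be told apart from a difference by week, and genes are said to rise or fall in this sense only. The test assumes that it varies like the 5.5-week groups, and the p-values measure the spread between these libraries only. Without 5.5-week mock 1 there were 4 higher genes, without 5.5-week mock 3 there were 5 lower genes, and without 5.5-week cuprizone 2 there were 15 higher and 17 lower genes, by the same test.

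Arc encodes a synaptic protein that regulates receptor trafficking, and had the largest rise of the 7 genes. Its level in CPM, the count relative to the TMM-scaled library total, was 191 in 5.5-week mock 1, 144 in 5.5-week mock 3 and 623 in 7-week mock 3. The log2 fold change was 1.89 ± 0.19 (SE), a 3.72-fold rise (edgeR, adjusted p = 0.00159). Fos, a subunit of the AP-1 transcription factor, was at 18.1 and 21.8 CPM at 5.5 weeks and at 65.4 CPM at 7 weeks. Its log2 fold change was 1.72 ± 0.17 (edgeR, adjusted p = 0.00142). For both genes the 7-week value lay far outside the 5.5-week pair.

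The nuclear receptor Nr4a1 was at 85.0 CPM in 5.5-week mock 1, 93.9 CPM in 5.5-week mock 3 and 289 CPM in 7-week mock 3, with a log2 fold change of 1.69 ± 0.15 (edgeR, adjusted p = 0.00111). The zinc finger factor Egr2 was the rarest of the 7, at 4.19, 5.04 and 14.4 CPM, and its log2 fold change was 1.64 ± 0.23 (edgeR, adjusted p = 0.0201). Leaving out 5.5-week mock 1 or mock 3 ended the call of Egr2 (edgeR, adjusted p = 0.487 and 0.0543), with log2 fold changes of 1.52 and 1.80. Dusp1, a phosphatase that switches off MAP kinases, was at 57.1, 62.1 and 144 CPM, with a log2 fold change of 1.27 ± 0.14 (edgeR, adjusted p = 0.00383).

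Junb, an AP-1 subunit, had nearly the same level in both 5.5-week libraries, 217 and 217 CPM, and 506 CPM at 7 weeks. Its log2 fold change was 1.22 ± 0.14 (edgeR, adjusted p = 0.0044). Without 5.5-week mock 1 the adjusted p of Dusp1 was 0.0608 and that of Junb 0.0715 by edgeR, with log2 fold changes of 1.22 and 1.23. Rsrp1, which encodes an arginine- and serine-rich protein and is in none of the lists, was at 131 and 110 CPM at 5.5 weeks and at 282 CPM at 7 weeks, with a log2 fold change of 1.23 ± 0.14 (edgeR, adjusted p = 0.0044). For each of the 7 genes the 7-week mock 1 and mock 2 columns repeat the count of mock 3 within 10 counts, for example 18789, 18787 and 18784 counts of Arc in mock 1, mock 2 and mock 3, so those columns add no further animal.

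**Figure D2:**
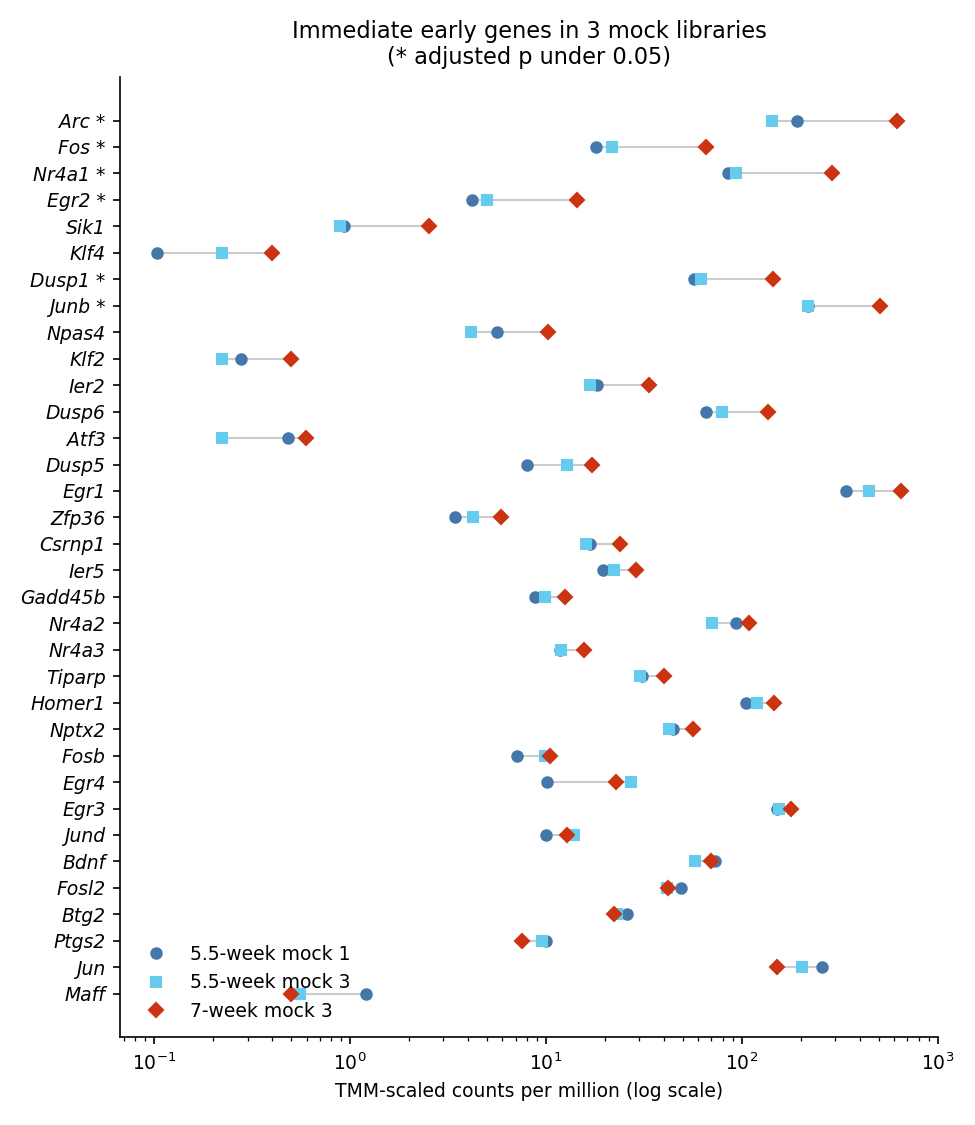
Level of each tested immediate early gene in CPM (horizontal axis, log scale) in the 3 independent mock libraries (symbols), ordered by the fitted log2 fold change; grey lines span the 3 values and asterisks mark the 6 genes past the threshold. In 26 of 34 genes 7-week mock 3 lies to the right of both 5.5-week libraries.

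Of the 35 genes on the list of immediate early genes, 34 were tested, 6 rose and 0 fell. The median log2 fold change of the 34 was 0.50, beside -0.01 over all genes tested, and 7-week mock 3 lay above both 5.5-week libraries in 26 of them and below both in 4. Over all genes tested it lay above both in 34.9% and below both in 35.2%. The summed level of the list was 2020 and 1988 TPM at 5.5 weeks and 3576 TPM at 7 weeks. Genes that missed the threshold by edgeR included Dusp6, which dephosphorylates ERK kinases, with a log2 fold change of 0.92, and Ier2, with 0.93. Npas4, a neuron-specific factor induced by calcium entry, had a log2 fold change of 1.07 (edgeR, adjusted p = 0.312).

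Egr1, the gene of the list with the highest CPM at 7 weeks, was at 342, 447 and 651 CPM, so that the 5.5-week libraries also stood apart (log2 fold change 0.72, edgeR, adjusted p = 0.261). The list did not move as a block. Jun was at 257 and 203 CPM at 5.5 weeks and at 151 CPM at 7 weeks (edgeR, adjusted p = 0.69), and Egr3, Bdnf and Fosl2 had log2 fold changes between -0.10 and 0.21. The value of Jun depends on the 7-week column read. Its log2 fold change was -0.61 with mock 3, -0.16 with mock 1 and -0.44 with mock 2. Egr4, another zinc finger factor, was at 10.1 CPM in 5.5-week mock 1, 27.2 CPM in 5.5-week mock 3 and 22.7 CPM in 7-week mock 3. Its difference within 5.5 weeks was thus larger than that between the times, and the plot of immediate early genes shows this beside the others.

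Promoter sequences of the genes that rose are shown because the members rose together and cyclic AMP response elements and serum response elements are the textbook control sequences of immediate early genes. The letters are 250 bases upstream of an annotated start, from RefSeq on GRCm38.p6, and are written in the direction of the gene. Capitals mark TGACG or its reverse complement (a CRE core, which also lies inside the full element TGACGTCA) and the CArG box, the core of the serum response element. The entries shown are those of Dusp1 (chr17:26508473-26508722, minus strand), Nr4a1 (chr15:101266596-101266845, plus strand), Fos (chr12:85473640-85473889, plus strand) and 1 of 5 annotated starts of Egr2 (chr10:67537620-67537869, plus strand).
Dusp1: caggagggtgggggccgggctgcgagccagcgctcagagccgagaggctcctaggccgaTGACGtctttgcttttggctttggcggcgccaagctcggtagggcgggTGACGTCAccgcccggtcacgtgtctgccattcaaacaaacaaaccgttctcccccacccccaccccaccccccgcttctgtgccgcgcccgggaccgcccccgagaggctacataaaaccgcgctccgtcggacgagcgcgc
Nr4a1: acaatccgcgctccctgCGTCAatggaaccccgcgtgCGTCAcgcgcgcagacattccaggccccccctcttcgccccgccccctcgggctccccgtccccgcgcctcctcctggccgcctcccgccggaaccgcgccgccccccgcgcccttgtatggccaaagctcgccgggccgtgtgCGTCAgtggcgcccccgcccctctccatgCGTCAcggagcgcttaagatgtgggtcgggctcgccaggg
Fos: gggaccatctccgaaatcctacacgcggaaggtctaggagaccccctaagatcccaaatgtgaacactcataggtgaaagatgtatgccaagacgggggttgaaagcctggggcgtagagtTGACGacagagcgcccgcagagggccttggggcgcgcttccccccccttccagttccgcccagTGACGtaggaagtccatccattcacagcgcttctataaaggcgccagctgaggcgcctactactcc
Egr2: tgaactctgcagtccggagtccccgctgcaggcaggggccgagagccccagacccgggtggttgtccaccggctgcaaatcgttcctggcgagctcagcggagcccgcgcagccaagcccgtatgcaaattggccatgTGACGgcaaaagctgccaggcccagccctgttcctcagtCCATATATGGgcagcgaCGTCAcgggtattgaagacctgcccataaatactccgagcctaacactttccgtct

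Of the 7 genes 6 had an entry, all but Arc. All 6 hold TGACG on either strand in at least 1 of their entries (Egr2 in 3 of 5), against 19.8% of 27025 genes counted the same way and 17.8% of 32851 single entries. The full TGACGTCA was found in 1 of the 6, Dusp1, against 1.77% of genes, and the CArG box in 1, Egr2, in 4 of its 5 entries, against 1.62% of genes. The Egr site GCGTGGGCG was found in 0 of the 6, and in 0.622% of genes. These matches describe the letters of a short window and are not binding sites shown by these data.

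Hippocampal markers differed in opposite directions, with granule cell genes of the dentate gyrus low and pyramidal cell genes of field CA1 high in 7-week mock 3, but none passed the test. Of 12 genes on the hippocampal list all were tested, 0 were called, 4 lay above both 5.5-week libraries and 8 below both, and the median log2 fold change was -0.68. C1ql2, a synaptic organiser secreted by dentate granule cells, was at 146 CPM in 5.5-week mock 1, 77.5 CPM in 5.5-week mock 3 and 21.1 CPM in 7-week mock 3 (log2 fold change -2.41 ± 0.61, edgeR, adjusted p = 0.488). Dsp, a desmosomal protein and granule cell marker, was at 16.5, 7.67 and 1.39 CPM (log2 fold change -3.12 ± 0.68, edgeR, adjusted p = 0.387). Prox1, the transcription factor that specifies granule cells, was at 73.4, 54.9 and 27.1 CPM (log2 fold change -1.25, edgeR, adjusted p = 0.596). In these 3 genes the 5.5-week libraries also stood apart, with mock 1 the highest.

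**Figure D3:**
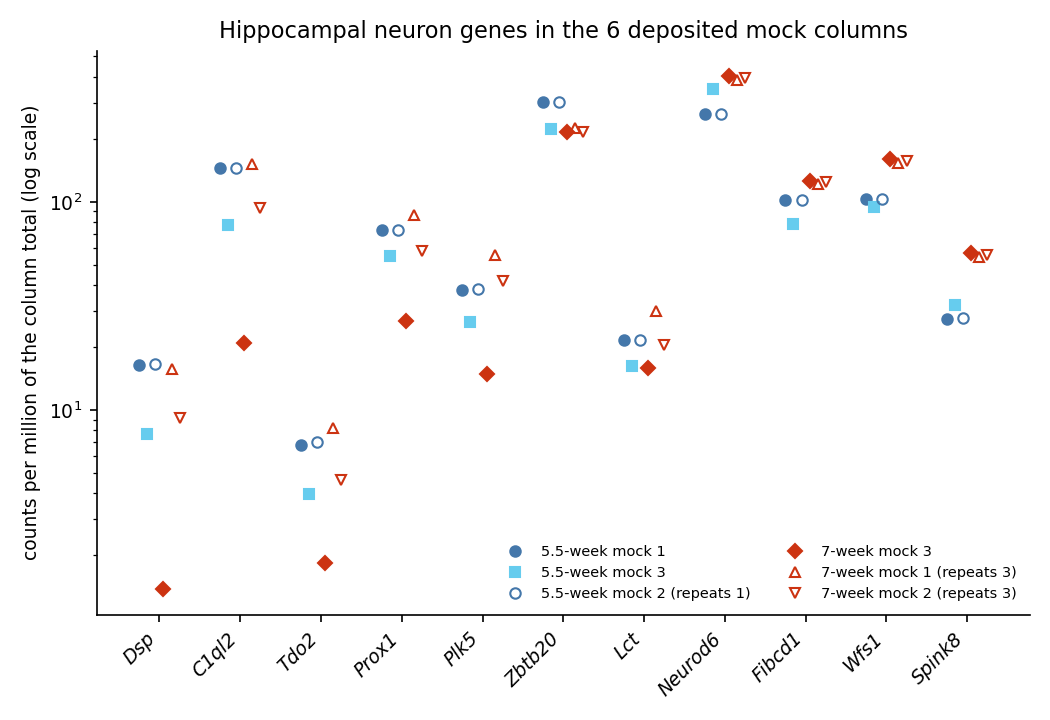
Level of the hippocampal genes with at least 5 CPM in 1 of the 3 independent libraries, in CPM by column total (vertical axis, log scale) in all 6 deposited mock columns, with open symbols for the 3 columns that mostly repeat another; genes are ordered by fitted log2 fold change. For the 5 genes on the left the open 7-week symbols lie well above 7-week mock 3, whereas for the 4 on the right the 7-week symbols coincide.

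The dentate values depend on which 7-week column is read. C1ql2 had 4797 counts in 7-week mock 1, 2901 in mock 2 and 635 in mock 3. Dsp had 502, 286 and 42 counts and Prox1 2743, 1801 and 817 in the same order. The columns that repeat mock 3 elsewhere thus held more dentate RNA than mock 3, and with 7-week mock 1 in its place the log2 fold change of C1ql2 was 0.38, of Dsp 0.33 and of Prox1 0.38. With 7-week mock 2 all 3 were still lower, at -0.32, -0.46 and -0.21. Tdo2, another gene of this kind, had a log2 fold change of -1.54 with mock 3, of 0.55 with mock 1 and of -0.28 with mock 2. Plk5, with -1.10, turned to 0.74 with mock 1 and to 0.31 with mock 2. Prox1 and Plk5 were singled out after their values were seen. DESeq2 called Dsp and Plk5 lower with mock 3 (adjusted p = 0.0241 for each).

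The CA1 genes had no such departure. Spink8, a protease inhibitor of CA1 pyramidal cells, was at 27.4 and 31.8 CPM at 5.5 weeks and at 57.0 CPM at 7 weeks (log2 fold change 0.95 ± 0.16, edgeR, adjusted p = 0.0847), and had 1728, 1722 and 1721 counts in 7-week mock 1, mock 2 and mock 3. Wfs1, an endoplasmic reticulum protein enriched in CA1, was at 104, 94.6 and 161 CPM (edgeR, adjusted p = 0.32). The neuronal factor Neurod6, the highest of the list by TPM, was at 266, 346 and 404 CPM (edgeR, adjusted p = 0.72). Arc, Egr1 and Junb are themselves expressed in hippocampal neurons. The part that the neuronal makeup of the dissected tissue plays in the rise of the immediate early genes was not tested.

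No gene of the other cell type lists was called, where 0.041% of all genes were. Of 20 microglial genes tested, 15 lay above both 5.5-week libraries and 1 below both, with a median log2 fold change of 0.44. The largest was that of Tmem119, a surface protein of resident microglia, at 1.35, 1.52 and 2.92 CPM (edgeR, adjusted p = 0.562). Ctss, a lysosomal protease, was at 5.09, 6.78 and 11.5 CPM (edgeR, adjusted p = 0.638). Within 5.5 weeks the same list had a median difference of 0.31 between mock 3 and mock 1, so 5.5-week mock 3 stood above mock 1 in it as well. Of 26 genes of ependymal cells and motile cilia tested, 16 lay above both and 2 below both, with a median of 0.37 beside -0.01 between the 5.5-week libraries. Foxj1, the master factor of motile cilia, was at 25.6, 32.7 and 41.7 CPM (edgeR, adjusted p = 0.638), and the summed list was at 224, 233 and 295 TPM.

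Choroid plexus and meningeal markers that oligodendrocytes also express were high, namely Enpp2 at 464, 388 and 399.9 CPM and Ptgds at 291, 302 and 334 CPM. Ttr, the transport protein that defines choroid plexus epithelium, was at 1.21 and 1.56 CPM at 5.5 weeks and at 6.40 CPM at 7 weeks (log2 fold change 2.21 ± 0.68, edgeR, adjusted p = 0.598), while Kcnj13, another gene of that epithelium, had 0 CPM in all 3 libraries. Of the 18 tested genes of the choroid plexus list, 5 lay above both 5.5-week libraries and 5 below both. That list had a median log2 fold change of -0.007. Clic6 and Calml4, also of that list, were low but lay above both, as Ttr did. By column total, Clic6 was at 0.48, 0.97 and 1.58 CPM and Calml4 at 0.52, 0.67 and 1.32 CPM. Other low members lay below both. By column total, Aqp1 was at 0.65, 0.15 and 0.13 CPM, Folr1 at 0.45, 0.52 and 0.39 CPM and Prlr at 2.34, 1.23 and 1.18 CPM. The 13 tested genes of fibroblasts and meninges had a median log2 fold change of -0.63, with 9 below both 5.5-week libraries. Collagens and laminins had one of -0.31, with 16 of 25 below both. Lum, a proteoglycan of meningeal fibroblasts, was at 2.18, 1.04 and 0.166 CPM (edgeR, adjusted p = 0.325). The fibroblast list and the collagens and laminins had the same direction within 5.5 weeks, with a median of -0.37 and -0.32 for mock 3 minus mock 1. Dcn, of the fibroblast list, had 1289 counts in 5.5-week mock 1 but 405 in mock 2, which mostly repeats mock 1. Astrocyte genes differed little. The 26 homeostatic markers had a median of -0.01, 10 above both and 10 below both, and log2 fold changes from -0.26 for the GABA transporter Slc6a11 to 0.38 for the gap junction gene Gjb6. Of the 23 genes of mature oligodendrocytes 10 lay above both and 3 below both, with a median of 0.03.

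Neuropeptide, stress and hormone-responsive genes also varied between the libraries without a call. Of 16 interneuron and neuropeptide genes, 11 lay above both 5.5-week libraries and 3 below both, with a median of 0.40 and of 0.25 within 5.5 weeks. Cck, a peptide of cortical and hippocampal neurons, was at 304, 317 and 415 CPM, and Penk, which encodes enkephalins, at 62.6, 58.5 and 85.4 CPM. Pdyn, which encodes dynorphin and is expressed by dentate granule cells, went the other way, at 18.4, 12.3 and 6.73 CPM (edgeR, adjusted p = 0.534).

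Of 19 heat shock genes 12 lay above both and 0 below both, with a median of 0.16 and of 0.23 within 5.5 weeks. Cryab, a small heat shock protein of oligodendrocytes and astrocytes, was at 387, 590 and 728 CPM (edgeR, adjusted p = 0.694). Of 16 glucocorticoid-responsive genes 7 lay above both 5.5-week libraries and 3 below both. Tsc22d3, which encodes the mediator GILZ, was at 194 CPM in 5.5-week mock 1, 366 CPM in 5.5-week mock 3 and 360 CPM in 7-week mock 3, and the kinase gene Sgk1 at 72.6, 128 and 117 CPM. The list had a median of 0.23 by time and of 0.31 within 5.5 weeks, and 1 member was 2-fold apart within 5.5 weeks.

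How far the mock libraries lay from one another was also measured without a test. The median absolute log2 difference over all genes tested was 0.21 between the 2 libraries of 5.5 weeks, 0.26 between 7-week mock 3 and 5.5-week mock 1, and 0.16 between 7-week mock 3 and 5.5-week mock 3. The 7-week library was thus closer to 5.5-week mock 3 than the 5.5-week libraries were to each other. Among 11233 genes with at least 5 CPM in 1 of the 3 libraries, 53 (0.472%) were at least 2-fold apart within 5.5 weeks, 47 of them higher in mock 3 and 6 in mock 1. Single pairs across the times gave 49 genes 2-fold higher and 105 lower in 7-week mock 3 against 5.5-week mock 1, and 19 higher and 22 lower against 5.5-week mock 3. Against both, 13 genes (0.116%) were at least 2-fold higher in 7-week mock 3 and 20 (0.178%) at least 2-fold lower. With 7-week mock 1 or mock 2 in its place, 10 and 11 of those 13 genes still were 2-fold higher, but only 3 and 2 of the 20 still 2-fold lower. Of the repeating columns, the one kept at 7 weeks never lay above the others in counts. The one kept at 5.5 weeks lay at most 10 counts below its repeat. The part of this choice in the excess of lower genes against 5.5-week mock 1 was not tested.

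**Figure D4:**
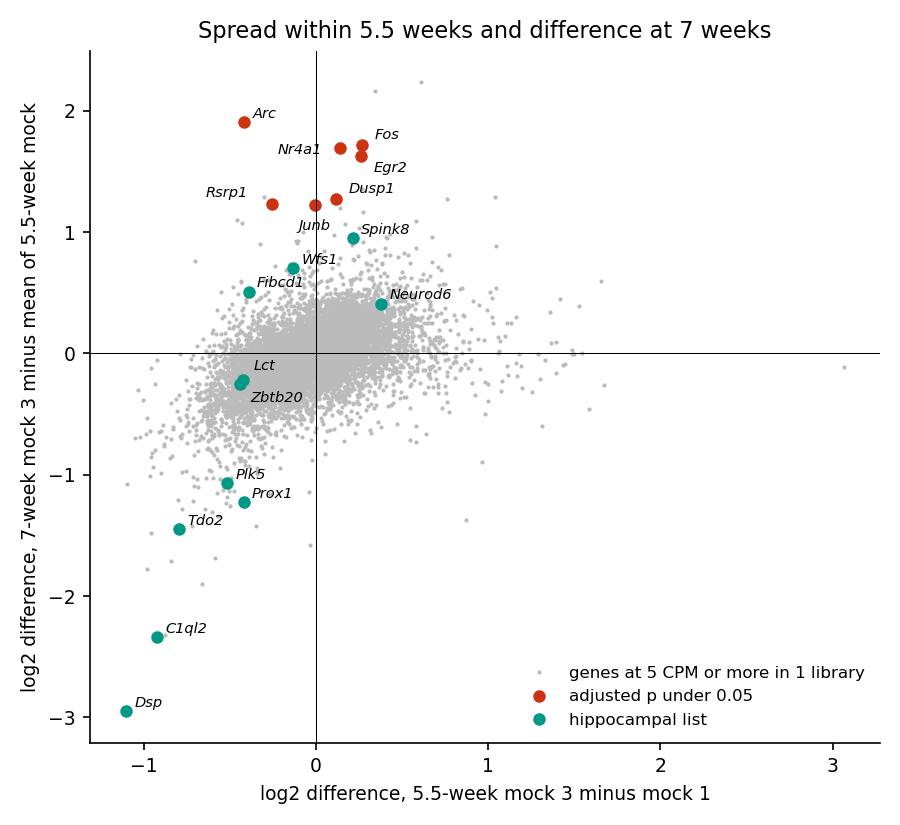
For each of 11233 genes with at least 5 CPM in 1 of the 3 libraries (points), the log2 difference between the 5.5-week libraries (horizontal axis, mock 3 minus mock 1) and the mean log2 difference of 7-week mock 3 from them (vertical axis); red points passed the test and green points are genes of the hippocampal list with that level, both labelled. The red points sit high. Their differences within 5.5 weeks run from -0.41 for Arc to 0.27 for Fos. The dentate genes are low on both axes.

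The largest difference within 5.5 weeks was that of Plin4, a lipid droplet coat protein, at 1.31 CPM in mock 1 and 11.6 CPM in mock 3, with 3.65 CPM in 7-week mock 3. Dbp, an output gene of the circadian clock, was at 23.1 and 67.4 CPM at 5.5 weeks and at 39.5 CPM at 7 weeks. The 19 genes of the clock list had 0 calls and a median of -0.01, and Dbp was the 1 member 2-fold apart within 5.5 weeks. Yrdc, a tRNA-modifying enzyme, was at 5.43 and 17.5 CPM and 8.15 CPM at 7 weeks, and Oaf was at 9.03 and 27.3 CPM and 11.4 CPM at 7 weeks. The rest of the 10 largest were Gm19439, Sap30, Trir, Rab5if, Fzd1 and Pnrc1, all higher in mock 3. In each of the 10 the 7-week value lay between the 5.5-week values. Among the genes higher in mock 1 were Dsp and Actn2, the latter at 16.8 and 7.81 CPM.

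Transcript length moved with these differences. The 47 genes that were higher in 5.5-week mock 3 had a median summed exon length of 2273 bases and a median GC content of 54.4%, beside 4723 bases and 49.6% for all 11233 genes. Over all genes GC content ran the other way, with a median log2 difference of 5.5-week mock 3 minus mock 1 of 0.043 in the group of lowest GC of 5 equal groups and of -0.047 in that of the highest. When the genes were split into 5 equal groups by exon length, the median log2 difference of 5.5-week mock 3 minus mock 1 went from 0.12 in the group of shortest genes to -0.14 in that of the longest. For 7-week mock 3 minus 5.5-week mock 1 it went from 0.18 to -0.17, and for 7-week mock 3 minus 5.5-week mock 3 from 0.06 to -0.04. The lists of cytosolic ribosomal proteins and of the nuclear-encoded respiratory chain consist of short genes, with median exon lengths of 1781 and 1438 bases. Of 79 tested ribosomal protein genes, 65 lay above both 5.5-week libraries with a median of 0.19, which was also their median difference within 5.5 weeks. Of 58 respiratory chain genes, 46 lay above both, with a median of 0.20 and of 0.19 within 5.5 weeks. The 20 genes that were 2-fold lower at 7 weeks had a median exon length of 8040 bases and the collagens and laminins one of 7833, whereas it was 3311 bases for the 13 genes that were 2-fold higher and 3294 for the immediate early genes. The part of transcript length in these groups was not tested, and 0 genes of the ribosomal protein and respiratory chain lists were called.

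**Figure D5:**
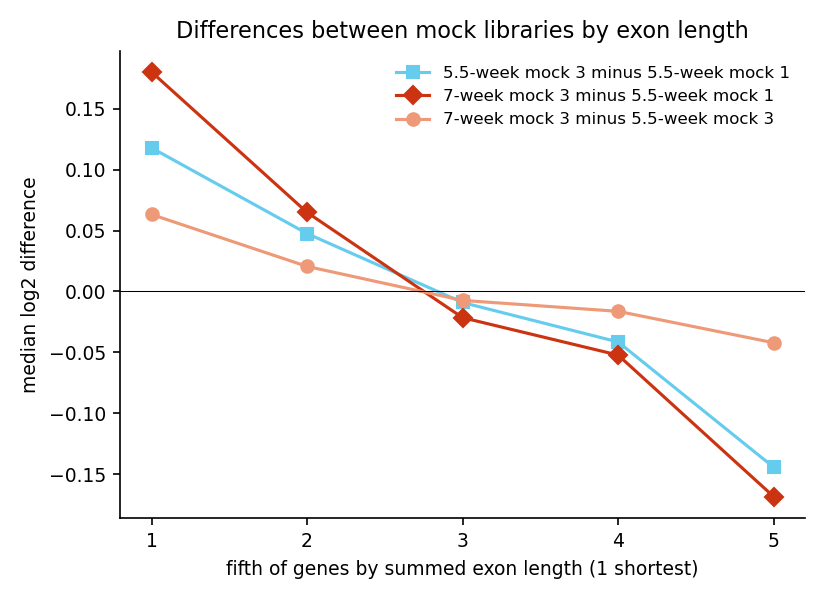
Median log2 difference between mock libraries (vertical axis) for 11233 genes in 5 equal groups by summed exon length (horizontal axis, 1 shortest); each line is 1 pair of libraries. Both libraries set against 5.5-week mock 1 run from positive medians for short genes to negative ones for long genes, and the remaining pair has the flattest line.

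Of the genes at least 2-fold apart by time that were not called, those of largest difference are given here. The 2-fold higher genes of largest difference were Gm10800, a predicted gene at 1.45, 2.26 and 8.82 CPM (log2 fold change 2.25 ± 0.45, edgeR, adjusted p = 0.259), and Ttr. The noncoding 4921539H07Rik was at 5.29, 6.41 and 15.01 CPM (log2 fold change 1.36, edgeR, adjusted p = 0.0583). Gm45623 was at 3.84, 3.11 and 8.55 CPM. Among the 2-fold lower genes beside Dsp and C1ql2 were Igsf1 at 11.6, 6.29 and 1.66 CPM and the monoamine transporter Slc29a4 at 15.9, 9.997 and 3.31 CPM. The tetraspanin Tspan18 was at 23.2, 11.7 and 4.77 CPM, and the cation channel Trpc6 at 10.5, 5.85 and 2.35 CPM. All 4 had more counts in 7-week mock 1 and mock 2 than in mock 3, for example 450, 331 and 100 counts of Slc29a4. Il1r1 was at 5.71, 3.78 and 1.39 CPM, and Otof at 6.06, 5.92 and 1.96 CPM. The value of Il1r1 also depends on the 7-week column read. It had 235, 146 and 42 counts in 7-week mock 1, mock 2 and mock 3, beside 165 and 102 in 5.5-week mock 1 and mock 3. Otof had 175 and 160 counts in 5.5-week mock 1 and mock 3. At 7 weeks it had 87, 118 and 59 counts in mock 1, mock 2 and mock 3. Sptan1, a spectrin of the membrane skeleton, had 25917 counts in 5.5-week mock 1, 15395 in mock 2 and 12464 in mock 3. At 7 weeks it had 6945, 44617 and 6940 counts, so that its lowest and highest values of all 6 columns were at 7 weeks.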

How the data were processed

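Ribosome-bound RNA was precipitated from micro-dissected corpus callosum and sequenced, per the labels' protocols. The deposited values are raw counts per Ensembl gene identifier; the submitters' processing notes name FastQC 0.11.9, STAR 2.5.4b and featureCounts 1.6.0, and list 2 mouse assemblies (GRCm38 and GRCm39) with no assignment, so gene positions come only from RefSeq promoters. The strand setting is not given in the sources used here, so overlapping genes and near-identical copies (Calm2 and other calmodulin genes, Gm10800) may share reads. GENCODE M21 named 52081 of 55414 identifiers (94.0%).

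Groups came from the labels. Repeated columns were dropped and named alternatives used them. In R 4.3.3, edgeR 4.0.16 (filterByExpr with a minimum count of 10, TMM, robust quasi-likelihood F test, two-sided) was fitted to 6 libraries, 2 5.5-week mock, 3 5.5-week cuprizone and 1 7-week mock, with 3 residual and a median of 9.56 prior degrees of freedom, and p-values were adjusted over all 17092 genes. DESeq2 1.42.0 and limma 3.58.1 were alternatives, with other filters, scalings and sample sets. CPM were TMM-scaled, log2 differences used a prior count of 2, and the 2-fold rule a minimum of 5 CPM. The totals of the 6 libraries ran from 22115776 to 30400048 counts. On simulated data of this design, the fit called 22.4% of 1.5-fold, 67.2% of 2-fold and 98.5% of 4-fold changes, with 3 false calls among 17092 genes.

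The members, gene lists and tests were chosen with earlier results of these data known. Named genes were the 20 of highest TPM, all genes past the threshold, the 10 largest differences by each 2-fold rule, the 3 highest of each list and any immediate early, clock, choroid plexus or Y-linked gene; others were chosen after their values were seen. Some items are not reported here.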

Additional observations from a re-analysis of the deposited data

Results flagged for a closer look

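For 6 of the 7 genes that rose in mock mice, the time difference in mock minus that in cuprizone mice passed an interaction test in an edgeR fit of 7 libraries. Its size on the log2 scale was 2.9 for Nr4a1, 1.72 for Fos, 3.67 for Arc, 1.89 for Dusp1, 2.1 for Junb and 1.61 for Egr2. In cuprizone mice the 7-week minus 5.5-week log2 difference was -1.18 for Nr4a1, 0.017 for Fos, -1.75 for Arc, -0.59 for Dusp1, -0.85 for Junb and 0.060 for Egr2, so for several genes the term joins opposite directions. Rsrp1, which did not pass, had a difference of 1.62 in cuprizone mice and a term of -0.37. The genes were chosen for their high value in the same 7-week mock library that enters the term, which favours a positive term, so these values are a description and support nothing. The term rests on 1 library per group at 7 weeks. The 7-week cuprizone library had 34576 genes with a count, against at most 23980 in the other libraries of the fit, and a TMM factor of 1.194, and 3415 of 19693 genes had a called interaction.

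The 7-week mock columns that repeat mock 3 departed from it in partly shared genes. At 2-fold or more, among genes with 500 or more counts in mock 3, 16 genes stood above it in mock 1 and 27 in mock 2, 3 of them in both. All 16 genes of mock 1 also stood more than 10 counts above mock 3 in mock 2, and 4 of the 27 genes of mock 2 did so in mock 1. In mock 2 the 2-fold genes included 9 of 9 genes of the mitochondrial genome at that level, for example 5500 against 768 counts of mt-Nd6, and in mock 1 they included 0 of the 9.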

How the results depend on the processing

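The 7 higher and 0 lower genes remained 7 and 0 in number under a 1 CPM filter, RLE scaling, no TMM, limma-voom and 7-week mock 1 in place of mock 3. Higher and lower genes numbered 50 and 126 with no filter on low counts, 22 and 37 with DESeq2, 47 and 108 with the 3 mock libraries only, 11 and 4 with the 7-week cuprizone library added, 11 and 0 with means of repeated libraries, 18 and 0 with 7-week mock 2 and 11 and 3 with 5.5-week mock 2 in place of mock 1. The 6 mock libraries as deposited, where repeats stand in as replicates, gave 1334 and 1482. Leaving out 1 library at a time gave from 4 to 15 higher genes (the lowest without 5.5-week mock 1, the highest without 5.5-week cuprizone 2) and from 0 to 17 lower genes (the highest without 5.5-week cuprizone 2). With the replicate block the counts were 44 and 66, and the groups compared share only the number 3. Same-numbered mock and cuprizone libraries did not deviate together (r = -0.03 over 17092 genes). That is 1 pair of differences, which cannot decide whether the numbers pair the samples. The cause of these shifts was not tested. Of the 7 genes, Nr4a1, Fos, Arc and Rsrp1 stayed past the threshold in all 19 alternatives, Dusp1 and Junb in 18 and Egr2 in 17. The alternatives that use repeated columns or their means reuse nearly the same counts for these genes, so they are no independent check. Every alternative rests on the same 7-week measurement of these genes.

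By the 2-fold rule, the 13 higher, 20 lower and 53 genes apart within 5.5 weeks became 35, 81 and 169 at a minimum of 1 CPM. Without 5.5-week mock 3 there were 49 higher and 105 lower, and without 5.5-week mock 1 19 and 22. With 7-week mock 1 only 3 were lower, and with 7-week mock 2 20 were higher and 2 lower.

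Directions turned only where other columns replaced or joined 7-week mock 3. With 7-week mock 1 the log2 fold changes were 0.33 for Dsp, 0.38 for C1ql2, 0.55 for Tdo2, 0.38 for Prox1, 0.74 for Plk5, 0.080 for Slc29a4 and 0.25 for Trpc6. With 7-week mock 2 they were 0.31 for Plk5, 1.02 for Sptan1 and 1.09 for Ppp1r9a. With means of repeats they were 0.21 for Plk5, 0.084 for Sptan1 and 0.15 for Ppp1r9a, and with all 6 columns 0.12 for Plk5 and 0.073 for Ppp1r9a. Several genes below the threshold passed it elsewhere, for example C1ql2 with the 3 mock libraries only and Spink8 with DESeq2.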
